A study of Mus musculus with 6 samples.

Results

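The pairs described here joined an element and a target gene whose contact at least doubled or at least halved between control oligodendrocyte precursor cells (Ctr-OPCs) and IFN-γ-treated cells (IFN-γ-OPCs), while the activity of the element stayed nearly level. They were chosen by measured values. A pair was included when the same target gene was listed in both tables and the elements were each other's best overlap, covering at least 50% of both. Its contact had to be above 0 in both conditions and to differ by at least 1 on the log2 scale, and the log2 ratio of element activity had to lie within 0.25 of 0. The tables listed 66637 pairs for Ctr-OPCs and 71478 for IFN-γ-OPCs, of which 26751 could be matched, 26193 had contact in both and 13418 of those had steady activity. The rule left 984 pairs, 614 with gained and 370 with lost contact upon IFN-γ treatment, which is 3.76% of the matched pairs with contact in both.

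The cells were primary OPCs of the Sox10-Cre/RCE genotype, in which Cre driven by Sox10 switches on an EGFP reporter, labelled C57BL/6j although the methods give the RCE parent line a mixed C57BL/6 and CD1 background, taken from the brains of mouse pups aged P4 to P6, with several brains pooled per experiment. Both groups grew in medium with bFGF and PDGF-AA, and from 24 h after passaging 1 group also received IFN-γ at 100 ng/mL, for 48 h per the study's methods. HiChIP for H3K27ac, the acetylation mark of active enhancers and promoters, was done on 3 libraries per group. Each group has 1 table made from its pooled libraries, so no value below has a replicate error, no difference between conditions could be tested, and the depth behind a contact is unknown. All 6 OPC markers looked up, Pdgfra, Cspg4, Sox10, Olig1, Olig2 and Ptprz1, were listed in both tables, at promoter activity quantiles of 0.851 to 0.982 (Ctr) and 0.815 to 0.994 (IFN-γ). Of 7 microglia markers, 4 were in the Ctr-OPC table and 6 in that of IFN-γ-OPCs, at quantiles of at most 0.802 and 0.825. All 4 neuron markers were listed, at 0.644 to 0.870 and 0.681 to 0.868, and 5 of 6 astrocyte markers, at 0.590 to 0.817 and 0.451 to 0.856. Of 5 oligodendrocyte markers 4 were listed in each condition, at 0.517 to 0.793 and 0.687 to 0.773. The highest neuron quantiles reached the OPC range in both conditions, and the highest microglia and astrocyte quantiles did so in IFN-γ-OPCs. One pair of an astrocyte marker was a member, that of Slc1a3, a glutamate transporter gene, from 0.00452 to 0.0104 over 50.9 kb. Per the methods, OPCs were selected by sorting for Sox10-GFP, which labels the whole oligodendrocyte lineage, or with beads against CD140a. The part of other cell types in the contacts was not tested.

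Enhancers act on promoters that may lie far along the chromosome, and chromatin folding brings them close. The activity-by-contact (ABC) model scores an element for a gene as its activity times its contact, divided by the sum of that product over all elements around the gene. Activity is read from open chromatin and H3K27ac at the element, and contact from the HiChIP map. A score can therefore move through activity, contact or the sum, and the pairs here were chosen for a change in contact. IFN-γ induces interferon-regulatory genes and the genes of antigen presentation, and OPCs respond to it with such an immune programme.

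Sequences of 6 elements are shown because their pairs had the largest ratios of contact among protein-coding targets read from the same bins in both conditions, 3 gained and then 3 lost, with elements that overlap an exon or UTR passed over. Each is named by its target gene and is 300 bases of GRCm38, plus strand. Capitals mark matches on either strand to TGANTCA (AP-1), TTCNNNGAA (GAS, the gamma-activated site), GAAANNGAA (the interferon-response element ISRE), ACAATGG (SOX factors) or the core of the CTCF motif.
Kcnt2 element, chr1:140254024-140254323: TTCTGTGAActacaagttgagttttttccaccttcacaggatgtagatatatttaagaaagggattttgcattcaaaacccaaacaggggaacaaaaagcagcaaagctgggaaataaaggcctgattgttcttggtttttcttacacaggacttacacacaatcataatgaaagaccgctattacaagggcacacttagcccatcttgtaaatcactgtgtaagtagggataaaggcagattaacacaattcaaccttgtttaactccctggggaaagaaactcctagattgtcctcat
Slc25a43 element, chrX:36761101-36761400: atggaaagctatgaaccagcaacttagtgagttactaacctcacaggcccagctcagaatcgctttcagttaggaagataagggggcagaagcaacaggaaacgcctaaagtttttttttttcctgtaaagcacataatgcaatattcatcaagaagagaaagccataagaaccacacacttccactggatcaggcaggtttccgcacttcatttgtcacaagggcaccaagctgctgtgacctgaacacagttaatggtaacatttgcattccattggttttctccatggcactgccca
Fmr1 element, chrX:68645207-68645506: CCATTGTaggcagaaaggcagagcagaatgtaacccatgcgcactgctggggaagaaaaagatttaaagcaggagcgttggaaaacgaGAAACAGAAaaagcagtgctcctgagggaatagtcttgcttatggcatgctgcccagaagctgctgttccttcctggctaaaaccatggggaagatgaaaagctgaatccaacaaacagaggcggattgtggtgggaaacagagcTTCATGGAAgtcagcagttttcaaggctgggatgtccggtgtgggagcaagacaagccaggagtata
Tbc1d23 element, chr16:57391400-57391699: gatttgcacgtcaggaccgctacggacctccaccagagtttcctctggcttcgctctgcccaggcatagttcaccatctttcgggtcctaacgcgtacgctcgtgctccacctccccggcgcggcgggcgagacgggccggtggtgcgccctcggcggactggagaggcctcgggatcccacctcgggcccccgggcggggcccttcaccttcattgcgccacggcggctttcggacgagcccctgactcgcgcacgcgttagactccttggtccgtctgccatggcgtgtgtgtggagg
Slc35f1 element, chr10:52742752-52743051: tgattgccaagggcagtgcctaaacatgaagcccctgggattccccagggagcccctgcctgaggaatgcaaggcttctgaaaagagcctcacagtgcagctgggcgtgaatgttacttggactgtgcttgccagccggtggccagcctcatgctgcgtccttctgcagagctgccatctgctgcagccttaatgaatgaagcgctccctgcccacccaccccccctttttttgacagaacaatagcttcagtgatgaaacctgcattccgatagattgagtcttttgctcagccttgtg
Arhgef26 element, chr3:62455911-62456210: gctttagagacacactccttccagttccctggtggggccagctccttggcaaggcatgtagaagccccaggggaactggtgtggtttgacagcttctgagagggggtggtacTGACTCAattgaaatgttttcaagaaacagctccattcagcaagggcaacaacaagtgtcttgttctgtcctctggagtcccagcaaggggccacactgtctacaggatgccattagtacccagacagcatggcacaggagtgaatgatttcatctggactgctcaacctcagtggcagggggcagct

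The Kcnt2 element held 1 GAS match, the Fmr1 element held 1 match each to GAS, ISRE and SOX, and the Arhgef26 element held 1 AP-1 match. The elements of Slc25a43, Tbc1d23 and Slc35f1 held none. Over all elements of the gained pairs, 17.8% held a GAS match (87 of 489, 95% Wilson interval 14.7 to 21.4%), against 16.2% of those of lost pairs (51 of 315, 12.5 to 20.7%) and 17.9% of the 14874 matched elements. ISRE matches lay in 13.5% of gained (10.8 to 16.8%), 18.4% of lost (14.5 to 23.1%) and 17.6% of all elements. The AP-1 letters were found in 17.0%, 17.8% and 18.9%, and the SOX letters in 6.95%, 9.52% and 9.90%. The CTCF core lay in 2.45% of gained elements (12, interval 1.41 to 4.24%), 2.86% of lost elements (9, 1.51 to 5.34%) and 4.69% of all. Both 5 kb bins of a pair of different bins held the core in 1 of 528 gained and 1 of 319 lost bin pairs, against 0.513% of all bin pairs. GC content was alike, with a median of 50.5% in gained, 50.6% in lost and 51.0% in all elements. All of these intervals cover counting error only, and elements near each other are not independent.

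Contact is given at 5 kb resolution, so 1 value serves every pair whose element and transcription start site (TSS) fall in the same bins. The gained pairs came from 539 bin pairs, 489 elements and 580 genes, and the lost pairs from 331 bin pairs, 315 elements and 355 genes. A bin pair gave 1 member in 768 cases and 2 or more in 102. The element centre lay in the same bin in both tables for 607 of the gained and 358 of the lost pairs. For the other 19 the contact was read from different bins in the 2 conditions.

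Among all 26193 matched pairs, contact at least doubled or halved in 7.04%, doubled in 4.35% and halved in 2.69%. Among those with steady activity the shares were 7.33%, 4.58% and 2.76%, so a level activity went with about the same share of changed contacts. Gained pairs made up 62.4% of the members (Wilson interval 59.3 to 65.4%, which covers counting error only and takes pairs that share a bin pair as separate). Where activity fell by 0.25 or more (8092 pairs), contact doubled in 4.92% and halved in 1.51%. Where it rose by as much (4683 pairs), contact doubled in 2.71% and halved in 4.53%. A pair has to reach a score of 0.02 in both tables to be matched, which leaves out pairs below it in either condition, and the part of this limit in the shares was not tested. The median log2 ratio of contact was 1.30 for gained and -1.23 for lost pairs, and more than a 3-fold change was seen in 22.3% and 20.3%. Many pairs lay near the threshold, with 388 of the 984 below 1.2 on the log2 scale and 696 steady-activity pairs between 0.8 and 1. The pairs just inside and just outside it had absolute log2 ratios of 1.0003 and 0.99883.

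**Figure D1:**
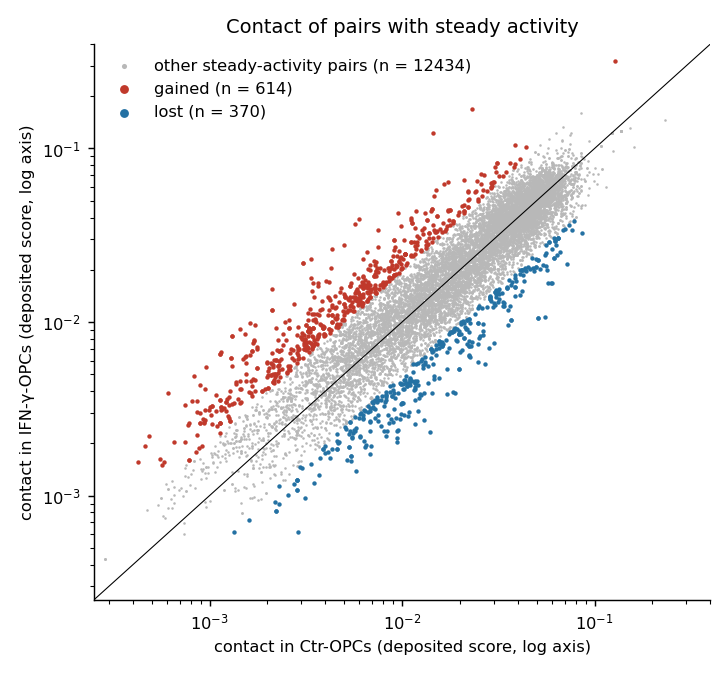
Contact in Ctr-OPCs (x axis) against IFN-γ-OPCs (y axis) for the 13418 matched pairs with steady activity, as deposited scores on log axes, with the line of equal contact. The 614 gained and 370 lost pairs lie outside the band of the rest by the rule that chose them, and most lie in the lower part of the range of contact.

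Gained contacts reached farther than lost ones. The median distance between element and TSS was 52.6 kb for gained pairs (quartiles 18.9 and 161 kb) and 26.8 kb for lost pairs (10.3 and 89.2 kb), against 11.1 kb for all steady-activity pairs. More than 100 kb separated element and TSS in 35.3% of gained pairs (interval 31.7 to 39.2%) and 22.4% of lost pairs (18.5 to 26.95%). The bins of element and TSS were identical or neighbours in 11.1% of gained, 19.2% of lost and 46.6% of all matched pairs. The share of gained pairs among members went from 54.3% under 5 kb and 48.6% at 5 to 10 kb to 69.7% at 100 to 200 kb, 72.9% at 200 to 500 kb and 78.0% over 500 kb.

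From 50 kb on, the contact of all matched pairs moved with distance in the same direction. Their median log2 ratio was 0.03 under 5 kb, 0.07 at 5 to 10 kb, 0.03 at 10 to 20 kb and 0.06 at 20 to 50 kb. It was 0.09 at 50 to 100 kb, 0.17 at 100 to 200 kb, 0.17 at 200 to 500 kb and 0.40 over 500 kb. When the ratio was centred on the median of its distance class and the rule applied again, 485 pairs were gained and 492 lost, a gained share of 49.6%. The share over 500 kb was then 46.2%, and the median distances were 46.8 kb for gained and 38.2 kb for lost pairs. How the contact maps of the conditions were scaled against each other is not given in the sources used here. Centring brings gains and losses towards balance by construction, so the centred share does not show what the excess of gained pairs rests on. The longer reach of gained contacts was 1.96-fold on that scale and 1.22-fold after centring.

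**Figure D2:**
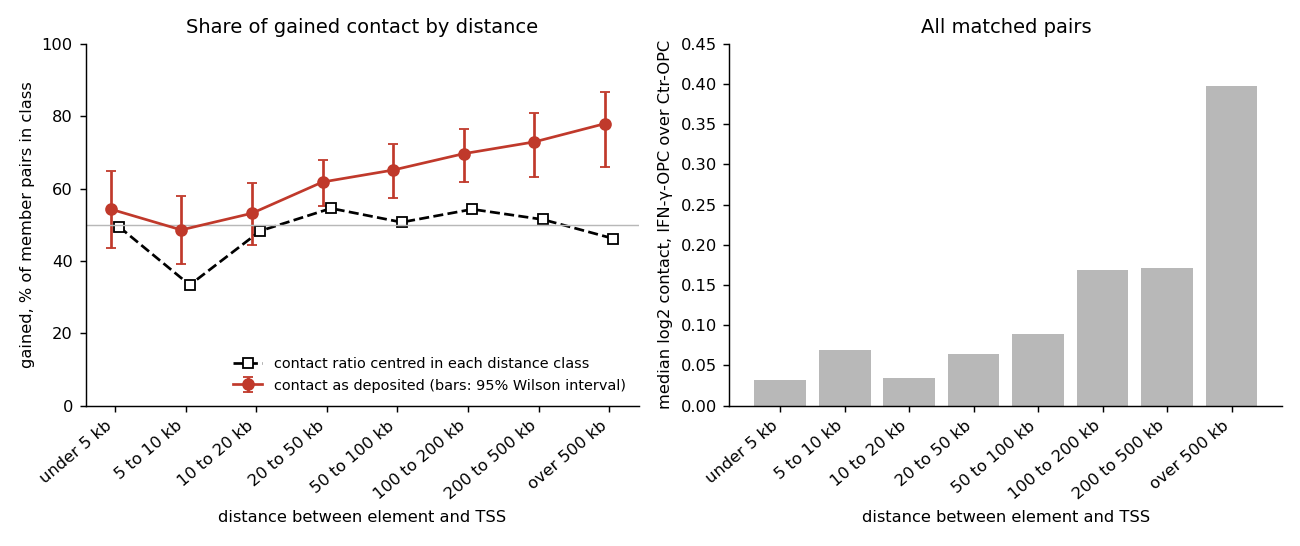
Left, the share of gained pairs among members (y axis, percent) in 8 classes of distance, with contact as deposited (points, 95% Wilson intervals) and centred in each class (squares). Right, the median log2 ratio of contact of all matched pairs in the same classes. The deposited values climb to 78.0% over 500 kb, where the median of all pairs is 0.40, and the centred values stay between 33.3% and 54.5%.

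The members had low contact. The median contact of gained pairs went from 0.00461 to 0.0125 upon IFN-γ treatment, and that of lost pairs from 0.0142 to 0.00571. As the geometric mean over both conditions, the median level was 0.00770 for gained and 0.00872 for lost pairs, against 0.0213 for all steady-activity pairs. Within classes of distance, gained pairs had the higher median level in 5 of 8, for example 0.00927 against 0.00723 at 20 to 50 kb, the reverse of the order over all distances. Of steady-activity pairs in the lowest eighth of the contact level, 13.04% gained and 6.52% lost contact, and in the highest eighth 0.577% and 0.144% did. The spread of the log2 ratio over all matched pairs fell over the same range, from an SD of 0.80 to 0.36. Whether the members differ from the spread between replicate maps could not be examined, since the libraries are pooled. Of the members, 406 had a level of at least 0.01, and their gained share was 57.6%. Contact can also be set against the median of pairs at a like distance, as a description, since the rule used these contacts. It lay below the median of its distance class in Ctr-OPCs for 91.4% of gained pairs and in IFN-γ-OPCs for 35.0%. For lost pairs these shares were 38.4% and 94.9%.

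**Figure D3:**
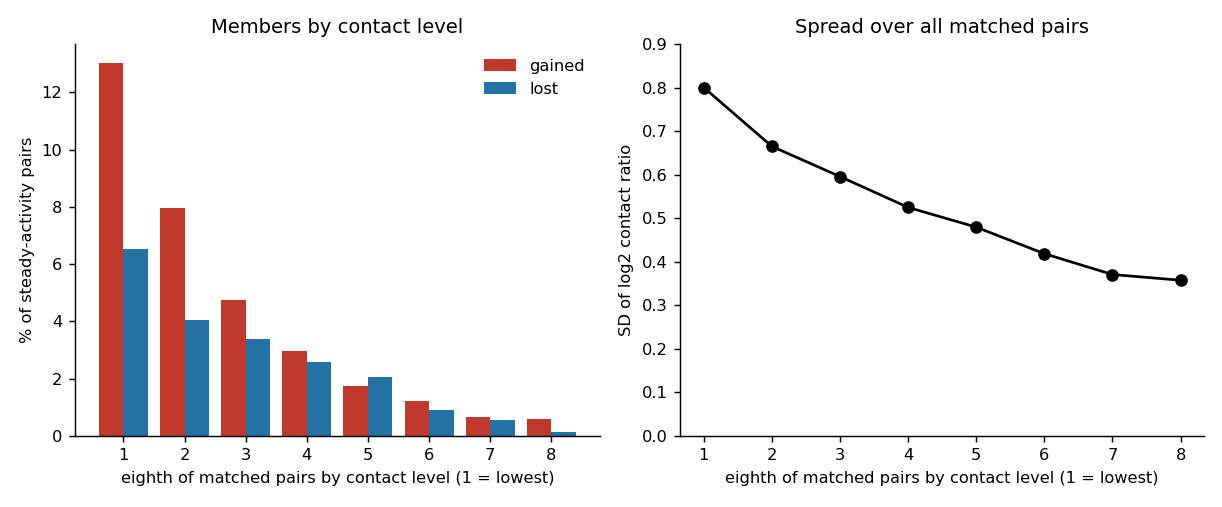
Left, gained and lost pairs as a percentage of steady-activity pairs in each eighth of the contact level (geometric mean of both conditions, lowest at left). Right, the SD of the log2 ratio of contact over all matched pairs in the same eighths. Both fall with contact, from 13.04% and 6.52% to under 1%, and from an SD of 0.80 to 0.36.

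The largest gain was at Kcnt2, which encodes a sodium-activated potassium channel. Its contact with an element in its own intron, 8.04 kb downstream of the TSS, went from 0.0145 to 0.123, 8.50-fold higher, with activity of 0.614 and 0.697. This was the 1 element listed for the gene in either table, and its ABC score went from 0.0259 to 0.202. The same element lost contact with Gm37777, a gene of unproven transcript status 12.3 kb away, from 0.0248 to 0.00591. A single element thus held the largest gain and a 2.07 log2 loss. The element and the Kcnt2 TSS lay in neighbouring bins, so the gain was read close to the diagonal of the map.

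Slc25a43, a member of the mitochondrial carrier family, gained 7.18-fold in contact with a bin in its intron, from 0.00306 to 0.0220. That bin holds 2 member elements, 17.6 and 20.1 kb from the TSS, which share this value and so count as 1 measurement. Fmr1, which encodes the RNA-binding protein FMRP, went from 0.00113 to 0.00654 with an intergenic element 33.1 kb upstream. Lage3, a subunit of the KEOPS complex for tRNA modification, went from 0.00435 to 0.0262 with an element at an exon of Flna 107 kb away. Pairs are ranked here among protein-coding targets whose element lay in the same bin in both conditions, with 1 pair per gene and bin pair. The remaining gained pairs among the 10 so ranked were those of Hddc2, Ncoa7, Fam47e, Armt1, Fam151b and Atp6v0d2, at 5.32 to 6.43-fold. Rmnd1 shares the bin pair and the value of Armt1. Of these 10 genes, 3 lie on chromosome X. Zfp488, read from different bins in the 2 conditions, had a 7.31-fold gain and is given with its gene list.

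By the same ranking the largest loss was at Tbc1d23, a protein of endosome-to-Golgi traffic. Its contact with an element in an intron of Cmss1, 160 kb away, went from 0.00944 to 0.00203, and its score fell from 0.115 to 0.0346. Among targets of any kind the largest loss was at Gm20954, a processed pseudogene, from 0.0140 to 0.00232 over 36.7 kb, or -2.59 on the log2 scale. The Tbc1d23 element fell with Filip1l too, from 0.00823 to 0.00221 over 38.5 kb. Araf, a kinase of the RAF family upstream of MAPK signalling, had 0.00944 and 0.00214 with an element in the UTR of Uba1 135 kb away. Slc35f1, a solute carrier, had 0.00577 and 0.00139 with an intronic element 52.4 kb from its TSS, and Arhgef26, a guanine nucleotide exchange factor, had 0.0120 and 0.00306 over 118 kb. The bins next to this pair went otherwise. The same element gained 9330121J05Rik, an antisense gene with its TSS in the bin beside that of Arhgef26, from 0.00643 to 0.0175, and another Arhgef26 element, 116 kb from the TSS, had 0.00897 and 0.00885. Stx11 (a SNARE protein), Fundc1 (a mitophagy receptor), Fnip2, Tmod2 and Ccdc83 were 3.40 to 3.91-fold lower. The largest losses were thus smaller in ratio than the largest gains, and 4-fold or more was reached by 57 gained and 19 lost pairs.

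**Figure D4:**
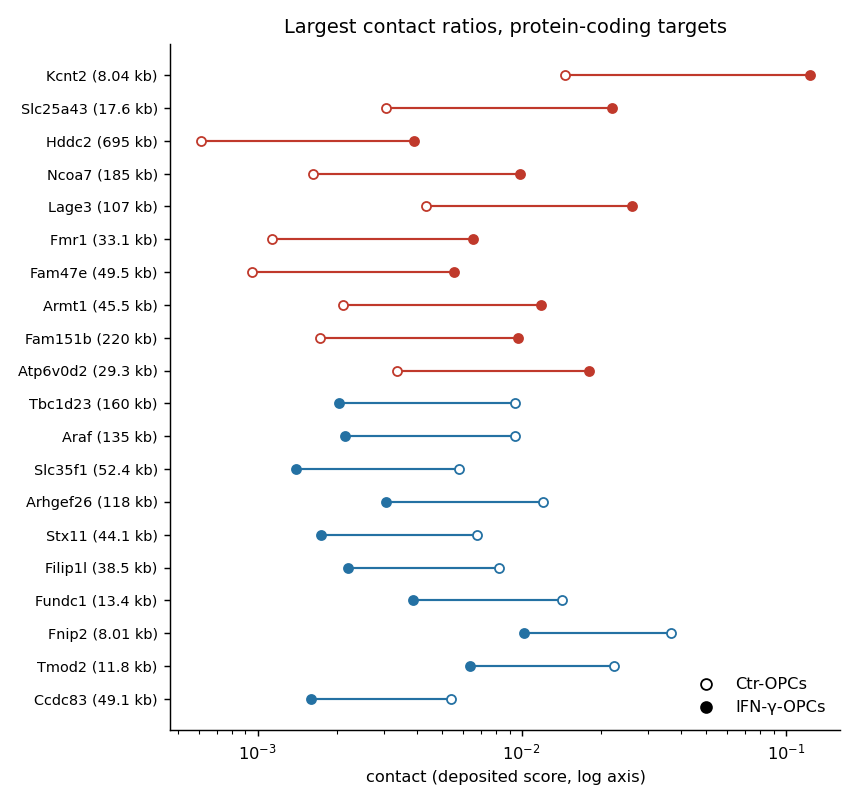
Contact in Ctr-OPCs (open) and IFN-γ-OPCs (filled) on a log axis for the 10 protein-coding targets with the largest gain (red) and the 10 with the largest loss (blue), among pairs read from the same bins in both conditions, with the distance to the element. Each line is 1 value per condition from pooled libraries. Gains run from 5.32 to 8.50-fold and losses from 3.40 to 4.65-fold.

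The ABC score moved with contact, its factor. The score exceeded 0.05, the study's limit for a connection, in IFN-γ-OPCs alone for 296 gained pairs and in Ctr-OPCs alone for 208 lost pairs, while 59 and 34 exceeded it in both. The median score was 0.0258 and 0.0537 for gained pairs and 0.0578 and 0.0266 for lost pairs. Since contact is a factor of the score, these values follow from the rule and are given as a description. The element was the best-scoring one of its gene in 27.7% of gained pairs before and 62.2% after IFN-γ treatment, and in 66.8% and 28.1% of lost pairs. Pairs of protein-coding targets that crossed 0.05 were ranked by the difference in score, not its ratio. The largest rise after Kcnt2, Lage3 and Slc25a43 was at Grin2b, an NMDA receptor subunit, from 0.0337 to 0.118. Mrs2, a mitochondrial magnesium channel, came next, from 0.0330 to 0.114. The Mrs2 element lies 0.914 kb from the TSS. The elements of Mrs2, Grin2b and Kcnt2 all lie in the bin next to that of the TSS. These contacts were thus read close to the diagonal of the map. The largest falls of such pairs were at Tbc1d23, Fnip2 (0.104 to 0.0348), Mrpl15 (0.106 to 0.0419), Xpnpep1 (0.109 to 0.0452) and Fundc1 (0.0895 to 0.0266).

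An element could gain one gene and lose another. Of 735 elements with a member pair, 69 had both gained and lost pairs. The 735 include elements with a single member pair, which cannot have both. Some of the 69 share a bin and its contact values, so they are not separate measurements. In 34 of the 69 the target genes with the largest gain and the largest loss lay on the same side of the element. The gained target was the farther one in 32 of 69. An element in an intron of Rgs20 lost Mrpl15, a mitochondrial ribosomal protein gene 237 kb away, from 0.00644 to 0.00192. It gained Tcea1, a transcription elongation factor gene, from 0.000861 to 0.00225, and Atp6v1h and Rgs20, whose TSSs share a bin, from 0.00534 to 0.0161. Its activity was 3.50 and 3.94. An element at an exon of Eci2 lost Eci2 itself, an enoyl-CoA isomerase gene, from 0.0125 to 0.00380, and gained the related Eci3 from 0.00260 to 0.00920. It also lost Gm8245, a processed pseudogene, from 0.0130 to 0.00271. The element that lost Tbc1d23 and Filip1l gained Cmss1, from 0.00202 to 0.00497.

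Some elements had several pairs in 1 direction. An element at an exon of Hint3 gained Trmt11 (0.00721 to 0.0157), Ncoa7 (0.00162 to 0.00986), Hey2 (0.00101 to 0.00292) and Hddc2 (0.000610 to 0.00392), over 17.6 to 695 kb, and its remaining matched target, Gm25596, stayed just below the threshold at a log2 ratio of 0.96. An element nearer to Hddc2, at 17.5 kb and without steady activity, had the opposite change, from 0.0131 to 0.00560. An element 331 kb from Hey2 had 0.00564 and 0.00291, while Hey2 elements at 453 and 457 kb rose from 0.00952 to 0.0146. An Ncoa7 element at 7.75 kb had 0.0266 and 0.0304. An element in the UTR of Cdc14a gained Dbt and Vcam1, among other genes, and lost Sass6, a centriole assembly gene, from 0.00470 to 0.00205. Vcam1, an adhesion molecule bound by leukocytes, went from 0.000888 to 0.00264 over 294 kb with it and from 0.00314 to 0.00801 with a second element at 176 kb, while its nearer elements at 15.2 and 15.8 kb shared 1 value, 0.0171 in Ctr-OPCs and 0.0152 with IFN-γ. An intergenic element 1.79 kb from the TSS of Nr4a3, an orphan nuclear receptor gene, halved its contact with it from 0.0177 to 0.00877, and with Alg2 and Sec61b 569 kb away from 0.00390 to 0.00187. The genes with most gained pairs were Zfp438 with 4, from 2 bin pairs, and Pdk3 with 3. Prl had 2 lost pairs, over 902 and 481 kb.

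**Figure D5:**
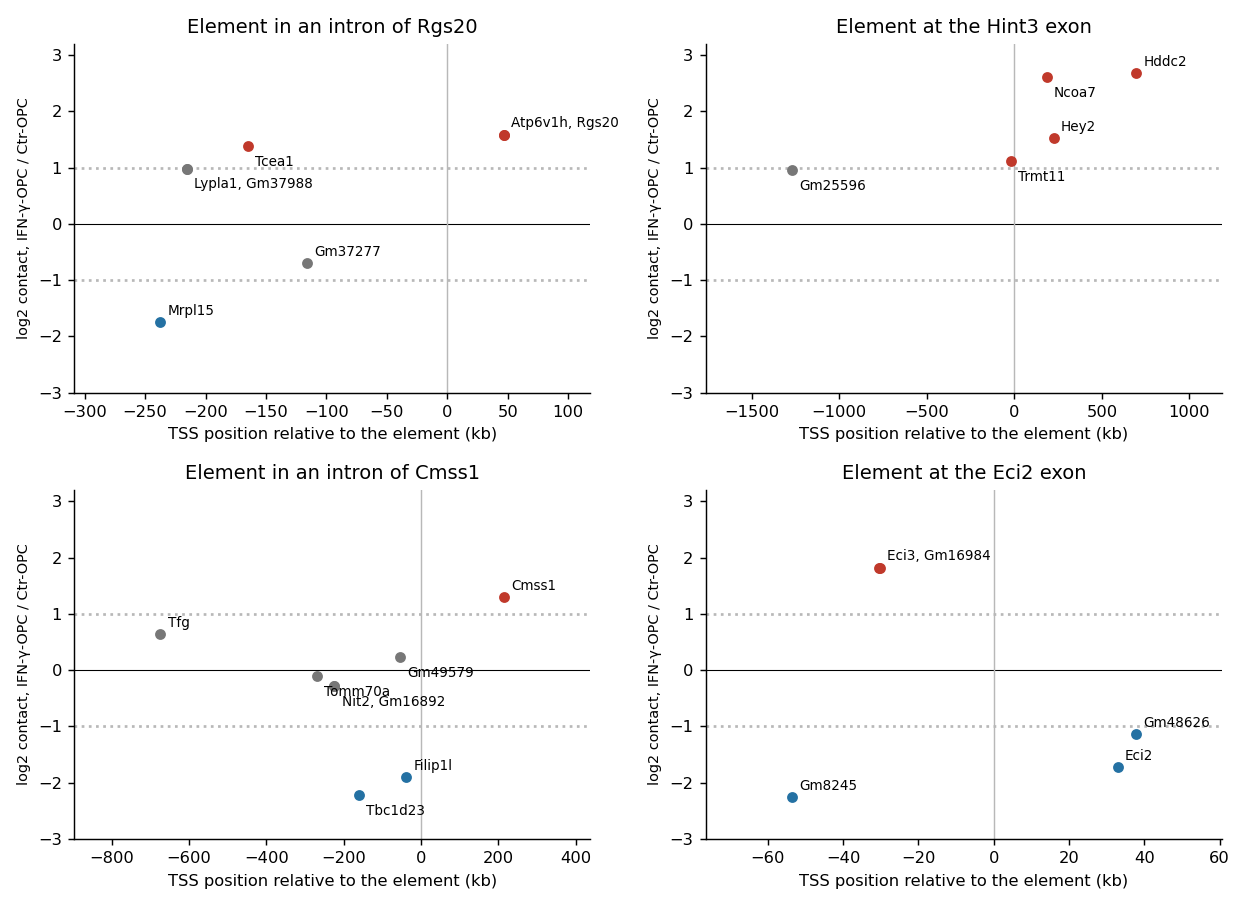
Log2 ratio of contact (y axis) of all matched target genes of 4 elements against the position of the TSS relative to the element (x axis, kb), with gained pairs in red, lost pairs in blue, others in grey and dotted lines at the threshold. Targets that share a bin share a value. The elements in Rgs20, Cmss1 and Eci2 have both gained and lost genes, and the Hint3 element has gained genes only.

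The element with most members lay 24.997 kb upstream of Mir17hg, the host transcript of the miR-17-92 cluster, which is known for promoting proliferation. Its contact went from 0.0104 to 0.0247, and its score from 0.0218 to 0.0480, with activity of 0.995 and 0.980. A nearer element of Mir17hg at 10.9 kb, no member since its activity went from 1.94 to 2.51, had the opposite change in contact, from 0.0236 to 0.00736, and its score went from 0.0905 to 0.0407. The 3 elements nearer still, at 2.08, 5.16 and 6.50 kb, had log2 ratios of contact of 0.32, 0.72 and 0.72. Its 7 pairs, Mir17hg and 6 miRNA genes, share 1 bin pair and are 1 measurement. The mature miRNAs are shown with the seed (bases 2 to 8) in capitals, because they make this 1 contact count 7 times. All 6 genes matched RefSeq (GRCm38.p6). They hold 4 seeds, shared by miR-17-5p with miR-20a-5p and by miR-19a-3p with miR-19b-3p.
mmu-miR-17-5p: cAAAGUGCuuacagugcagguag
mmu-miR-18a-5p: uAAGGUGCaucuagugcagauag
mmu-miR-19a-3p: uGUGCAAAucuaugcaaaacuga
mmu-miR-19b-3p: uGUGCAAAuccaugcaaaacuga
mmu-miR-20a-5p: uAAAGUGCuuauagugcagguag
mmu-miR-92a-3p: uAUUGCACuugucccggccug

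Of the immune genes that IFN-γ is known for, 13 of 44 interferon-response genes and 10 of 25 antigen-presentation genes had matched pairs. These pairs numbered 24 and 13, against 26193 pairs over 15423 genes in all. Of 24 matched pairs of interferon-response genes, 8 had steady activity and 1 was a member (4.17%, against 3.76% of all matched pairs), and of 13 pairs of antigen-presentation genes, 5 had steady activity and none was. The median log2 ratio of activity was 0.53 and 0.26 for these lists, against -0.09 for all matched pairs, and that of contact was 0.08 and 0.31, against 0.06. Activity changed by 0.25 or more in 16 of the 24 and 8 of the 13 pairs, against 12775 of all 26193. Without the limit on activity the counts with changed contact were the same, 1 of 24 and 0 of 13, against 7.04% of all matched pairs. These counts are too small to be set against that share. The 1 member was Irf2, an interferon-regulatory transcription factor, whose contact with an element 52.7 kb upstream went from 0.00497 to 0.0127 at an activity of 2.43 and 2.38. Its other matched element had 0.00601 and 0.00704.

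Of 69 pairs of OPC lineage genes 1 was a member, of 29 pairs of growth factor and cell cycle genes 1, and of 19 myelin and 28 immediate early gene pairs none. The member rule held for 3.76% of all matched pairs, and these counts are too small to be set against it. Zfp488, a transcription factor of the oligodendrocyte lineage, went from 0.0231 to 0.169 with an intronic element 3.77 kb from its TSS. The element centre lay in the bin next to the TSS bin in Ctr-OPCs and in the TSS bin itself in IFN-γ-OPCs, so these contacts are from different bin pairs. Cdk6, a kinase that drives entry into the cell cycle, went from 0.0264 to 0.00839 with an intronic element 113 kb downstream, and its score fell from 0.0560 to 0.0215. Its other 3 matched elements had log2 ratios of -0.66, -0.66 and -0.06.

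Target genes of members were protein-coding in 46.3% of gained (interval 42.4 to 50.2%) and 39.2% of lost pairs (34.4 to 44.3%), against 49.2% of all matched pairs. Processed pseudogenes, copies of spliced transcripts that resemble their source genes, made up 14.5% of gained and 16.5% of lost pairs, against 8.24% of all. Members were 13.6% of the steady-activity pairs of processed pseudogenes and 6.39% of those of protein-coding genes. Within the lowest 25% of the contact level the shares were 26.1% and 14.8%, and above it 6.42% and 3.27%. Members were also more frequent on chromosome X, at 20.0% of 320 steady-activity pairs against 7.02% on the autosomes. Contact there was lower, with a median level of 0.00789 against 0.0218. Within the lowest 25% of the contact level the shares were 24.8% and 15.6%, and above it 10.9% and 3.73%. Promoters of the targets had a median activity quantile of 0.696 for gained and 0.641 for lost pairs in Ctr-OPCs, and 0.695 and 0.648 in IFN-γ-OPCs. Elements lay within genes in 67.9% of gained, 71.6% of lost and 72.1% of all pairs. No coding TSS lay between element and target in 63.0% of gained, 66.5% of lost and 76.4% of all matched pairs. This share depends on distance, and its order changed with it. At 50 to 100 kb it was 62.6%, 47.2% and 52.8%, and at 200 to 500 kb 25.7%, 42.3% and 30.3%.

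Few members had a listed neighbour. The bin pair 1 bin away at either end was listed in both tables for 78 of 532 gained and 57 of 323 lost bin pairs that were the same in both conditions. Its median log2 ratio was 0.22 around gained pairs (90 bin pairs) and 0.01 around lost pairs (69), while the members themselves were at 1.30 and -1.24 over their bin pairs. Of these neighbours, which can include other members, 8 of 90 (8.89%) doubled and 2 halved around gained pairs. Around lost pairs 5 of 69 (7.25%) halved and 3 doubled. Of all bin pairs 4.43% doubled and 2.76% halved, but these were not matched to the neighbours in contact level. In the lowest eighth of the contact level 13.04% of steady-activity pairs doubled and 6.52% halved. At 2 bins away the medians were -0.13 and 0.05, and 2 doubled and 6 halved around gained pairs. At 3 bins away 4 doubled and 7 halved around gained pairs, and 6 doubled and 0 halved around lost pairs. These counts did not follow the direction of the members. Contact at 3 bins was higher in 43 of 71 bin pairs around gained and 28 of 55 around lost pairs. At 2 bins it was higher in 29 of 71 and 38 of 70. Over all 4242 listed bin pairs that are 1 bin apart, the ratios had the same sign in 65.2% and Spearman's correlation coefficient was 0.29, as a description of bin pairs that share libraries and a bin. Of bin pairs 1 bin away, 58 of 90 were higher around gained pairs and 35 of 69 around lost pairs, against 55.2% of all bin pairs. Other elements of the same TSS bin, 3 or more bins away, had a median of 0.13 around gained (554 bin pairs) and 0.01 around lost pairs (346), and other targets of the same element bin had 0.10 (1113) and 0.11 (666). The median over all 24093 bin pairs was 0.06.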

How the data were processed

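OPCs were profiled with H3K27ac HiChIP. Per the labels and the study's methods, the authors aligned reads to mm10 with HiC-Pro, pooled 3 libraries per condition and combined contact with ATAC-seq and H3K27ac CUT&RUN in the ABC model. The deposited tables hold element activity as a signal, contact, its products and the promoter quantile as a score, and the ABC score as a fraction, for pairs scoring at least 0.02. Depth, balancing and scaling between conditions are not given in the sources used here.

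Pairs were matched by gene and mutual best overlap, and log2 ratios were taken on the deposited values. With 1 pooled table per condition no test was run. Intervals are 95% Wilson intervals. Genes came from GENCODE M21 and held 983 of the 984 members' targets. The members and gene lists were chosen with earlier results of these data known. Genes are named for the 10 largest ratios per direction, the gene lists, the 3 elements and 3 coding genes with most members and the 5 largest score changes across 0.05. The examples of elements with both directions, and of second targets, were chosen after their values were seen. Sequences take 300 bases of the element, where most motif matches lie, and skip elements with a UTR. The work used pysam 0.24.0, SciPy 1.17.1, pandas 2.3.3 and NumPy 2.4.6 under Python 3.11.15. The matching was tested on simulated data. Alternatives are given in the closing section.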

Additional observations from a re-analysis of the deposited data

How the results depend on the processing

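In each of the 16 alternatives run, 13 of them planned and 3 chosen after seeing the data, the median distance of gained pairs exceeded that of lost pairs, by 1.22 to 2.07-fold. The gained share exceeded 50% in 15 and ranged from 49.6 to 66.2%. Over all distances, the median contact level of lost pairs exceeded that of gained pairs in 15, the exception being the ratio centred in distance classes (0.00783 gained, 0.00744 lost). A share was taken as moved when outside the Wilson interval of the reported share, and another value when it differed by more than 1.5 times. Of 96 values, 77 stayed within these limits and 19 moved. Activity limits of 0.1 and 0.5 gave 416 and 1505 pairs. A contact limit of 1.5 gave 268 pairs, a gained share of 65.7% and a median distance of lost pairs of 43.0 kb. The contact with a pseudocount gave 629 pairs. Centring the contact ratio over all pairs gave a gained share of 53.7%, and centring it in distance classes, added later, 49.6%. Without same or adjacent bins the median distance of lost pairs was 44.1 kb. Protein-coding targets alone gave 429 pairs and a gained share of 66.2%. Pairs above a score of 0.05 in at least 1 table numbered 597, with a median distance of gained pairs of 34.3 kb. A contact level of at least 0.01, added later, left 406 pairs, a gained share of 57.6%, median distances of 13.7 kb (gained) and 9.46 kb (lost) and median levels of 0.0164 and 0.0201. Without chromosome X, also added later, no value moved beyond these limits. The cause of each shift was not tested. No paired analysis was possible because each condition holds 1 pooled table, so the replicate numbers of the libraries mark no columns, and no library could be left out. These tables hold no measure of the depth behind a contact.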
